A study of Rattus norvegicus with 9 samples.

Results

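The expression of 10 genes of the Notch pathway was examined in adipose-derived mesenchymal stem cells (ASCs) of the rat: the receptors Notch1, Notch2, Notch3, and Notch4, the ligands Jag1, Jag2, and Dll1, and the targets Hes1, Hey1, and Heyl. The genes were chosen by name with earlier results of these data known, and all 10 were found among the 35362 genes of the deposited table. Of these, 9 passed the filter on low counts, which kept 14770 genes, and Hey1 did not.

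The cells were grown from subcutaneous groin fat (SASCs), perirenal fat (PASCs), and epididymal fat (EASCs) of Sprague Dawley rats, male and 6 weeks old per the methods, without any treatment or genetic change, and RNA was sequenced at passage 3. There were 9 samples, 3 in each group. The sources used here give the samples as wells of culture plates, with more replicates per group than the 3 here, and do not say whether wells of a group held cells of different rats, so p-values measure only the spread between these samples, which may be technical. Total counts ranged from 17591916 to 30299032 per sample, and 3 counts corresponded to 0.104 to 0.159 CPM, a limit that covers counting error only (CPM, counts scaled by library size with TMM factors). Genes of ribosomal RNA took 10.4% to 15.5% of the counts of SASCs, against 22.4% to 32.9% for PASCs and 15.9% to 40.3% for EASCs. Of 6 surface markers of mesenchymal stem cells, all 6 were above 1 CPM in at least 1 sample, and summed they lay between 3100 and 3206 CPM for SASCs, 2017 and 2051 CPM for PASCs, and 2025 and 2085 CPM for EASCs. The marker Pdgfra, the only downregulated DEG of the 6, had a mean of 1543 CPM for SASCs against 278 for PASCs and 235 for EASCs, and at an adjusted p-value under 0.05 the 6 went both ways, with 3 higher and 2 lower in PASCs and 3 higher and 3 lower in EASCs (34.6% and 34.6%, and 35.5% and 34.3%, of all genes).

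Notch signaling passes between cells in contact. A ligand of the Jagged or Delta family on the surface of a cell binds a Notch receptor on its neighbor, the receptor is cut by ADAM proteases and then by gamma-secretase, and its intracellular part enters the nucleus, where it joins the DNA-binding protein RBPJ and a Mastermind coactivator to turn on repressor genes of the Hes and Hey families. In mesenchymal progenitors the pathway is known for restraining or timing differentiation, and in blood vessels for the identity of arterial endothelium and of mural cells, the pericytes and smooth muscle of the vessel wall.

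RBPJ binds DNA at a core of TGGGAA, so the 250 bases before the start site are shown for the Notch targets Hes1 and Heyl and for the ligand Dll1, which were all lower in PASCs (below). The sequences are those of RefSeq on the build GRCr8, read 5′ to 3′ on the strand of the gene, and capitals mark TGGGAA or its reverse complement TTCCCA. Hes1 is shown from chr11:84213046-84213295 on the minus strand, Heyl from chr5:140793021-140793270 on the plus strand, and Dll1 from chr1:64993275-64993524 on the minus strand.
Hes1: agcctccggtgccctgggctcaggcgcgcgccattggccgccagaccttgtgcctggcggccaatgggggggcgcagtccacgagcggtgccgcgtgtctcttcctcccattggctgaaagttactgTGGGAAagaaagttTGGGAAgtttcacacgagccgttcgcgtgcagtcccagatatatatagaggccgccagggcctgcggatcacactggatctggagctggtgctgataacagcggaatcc
Heyl: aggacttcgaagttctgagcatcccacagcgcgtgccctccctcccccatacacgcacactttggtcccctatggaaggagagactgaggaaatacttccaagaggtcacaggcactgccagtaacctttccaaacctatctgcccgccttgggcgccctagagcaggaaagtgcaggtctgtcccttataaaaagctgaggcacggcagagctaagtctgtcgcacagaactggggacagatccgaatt
Dll1: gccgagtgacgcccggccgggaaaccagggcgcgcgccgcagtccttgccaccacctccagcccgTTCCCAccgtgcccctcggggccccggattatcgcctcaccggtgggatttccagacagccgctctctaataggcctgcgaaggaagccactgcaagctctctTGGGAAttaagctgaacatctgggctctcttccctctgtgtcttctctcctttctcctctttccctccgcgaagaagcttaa

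Windows from 250 bases before to 50 bases after the start site were found for 9 of the 10 genes and searched on both strands. TGGGAA was found in 4 of these 9 genes, and in 25.7% of all 33469 rat windows of the same length. The window of Hes1 held the core at -123 and -109 from the start site, both on the strand of the gene, and that of Dll1 at -82 and, on the other strand, at -185. Of all windows, 3.85% held at least 2 copies. Notch3 had a single match, 42 bases after the start site, and Notch4 had matches at -246 and -93 on the other strand. RefSeq lists Notch4 on the strand opposite to that in the deposited table. The N box CACNAG, a site that Hes proteins bind, had 4 matches in Hes1, 4 in Notch1, 2 in Notch4, and 1 in Notch3, with at least 1 match in 43.1% of all windows and at least 2 in 11.2%. None of the searched windows of these genes held the E box CACGTG, found in 6.42% of all windows. These matches describe the letters of the windows and are not binding sites measured in these cells.

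By level per length, in FPKM (CPM per kilobase of the gene length in the deposited table), Notch2 was the most abundant of the 10 genes in each group. It was at 18.2 ± 1.44 FPKM in SASCs, 23.1 ± 1.69 FPKM in PASCs, and 23.2 ± 2.53 FPKM in EASCs (SD, n = 3 each), and its mean over the samples was higher than that of 82.9% of the genes tested. In SASCs, Notch3 followed at 6.57 ± 0.247 FPKM, then Jag1 at 3.10 ± 0.164 FPKM and Hes1 at 2.58 ± 0.460 FPKM (SD, n = 3 each), and Jag1 and Hes1 overlapped between their samples. The other 6 genes were under 1 FPKM on average in each group. Hey1 was the lowest in SASCs.

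**Figure D1:**
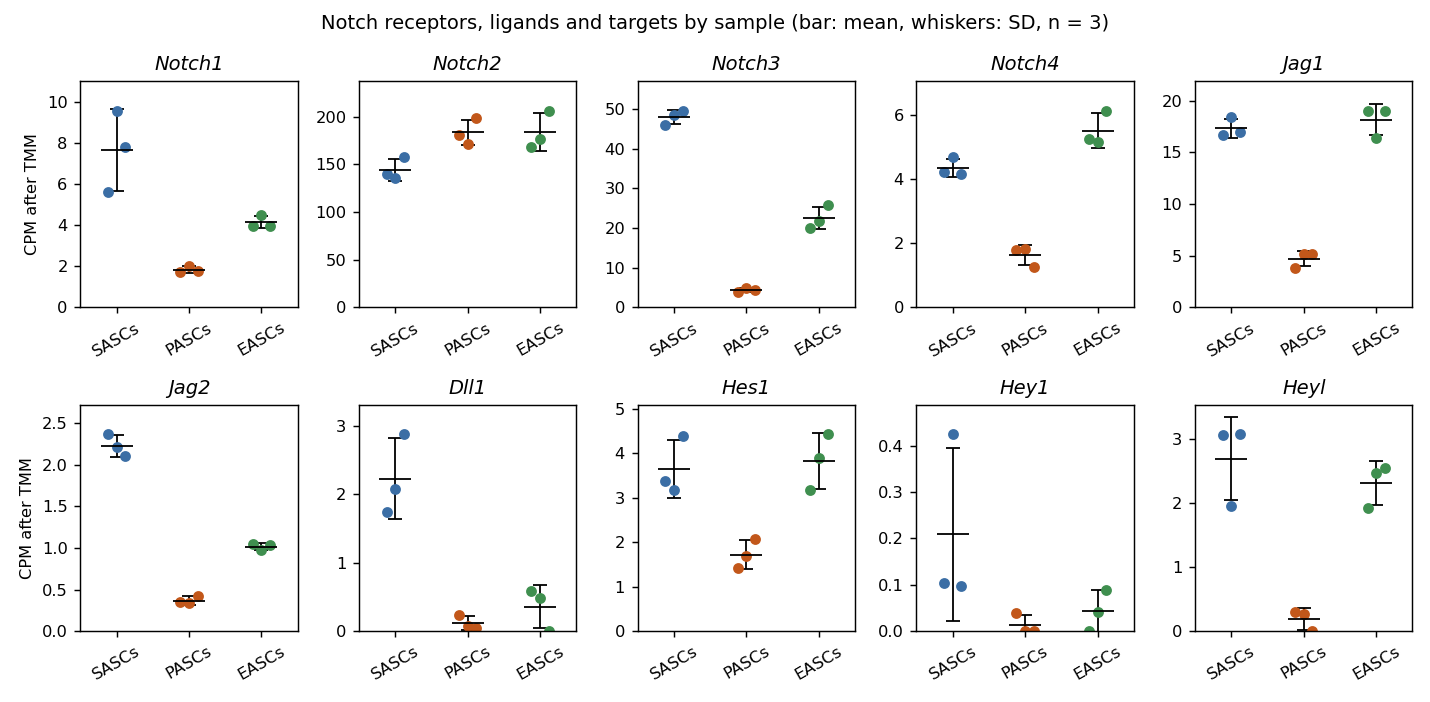
Level of each of the 10 genes in CPM after TMM scaling (vertical axes, linear from 0, a separate scale for each gene) in the 3 samples of SASCs, PASCs, and EASCs (points), with the mean (bar) and SD (whiskers). PASCs are the lowest group for each gene but Notch2, for which both PASCs and EASCs lie above SASCs.

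Of the 9 genes tested, 8 were downregulated in PASCs against SASCs at an adjusted p-value under 0.05, and 1, Notch2, was upregulated. In bulk RNA, fewer cells of a type and less RNA per cell cannot be told apart. In the same comparison 34.6% of all genes tested were lower and 34.6% were higher. A DEG had to differ by more than 2-fold besides passing that adjusted p-value. All 8 lower genes were DEGs, where 14.9% of all genes tested were downregulated DEGs and 12.0% upregulated. In EASCs against SASCs, 4 genes were downregulated and 1 upregulated at an adjusted p-value under 0.05, against 34.3% and 35.5% of all genes, and 3 were downregulated DEGs (14.2% of all genes) with no upregulated DEG (13.6% of all genes). Compared directly, 7 genes were higher in EASCs than in PASCs (16.1% of all genes) and none was lower (14.5%). These 7 were also DEGs, against 5.19% of all genes that were DEGs higher in EASCs and 2.20% lower. The median log2 fold change of the 9 genes was -2.04 in PASCs against SASCs, where that of all genes tested was -0.01, and -0.22 in EASCs against SASCs, where that of all genes was 0.01. Both comparisons use the same samples of SASCs. By total counts without TMM, which put the median of all genes at -0.33 in PASCs and -0.39 in EASCs against SASCs, 8 genes passed as lower in PASCs and none as higher, and 4 passed as lower in EASCs and none as higher. That scaling also changed the share of higher genes among all passing genes from 50.02% to 27.2% in PASCs and from 50.9% to 24.7% in EASCs. The counts describe the genes that passed the filter on low counts, which Dll1 did in all 3 samples of SASCs but of no other group, and Heyl in no sample of PASCs. A gene that passes through its high group alone had to differ.

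**Figure D2:**
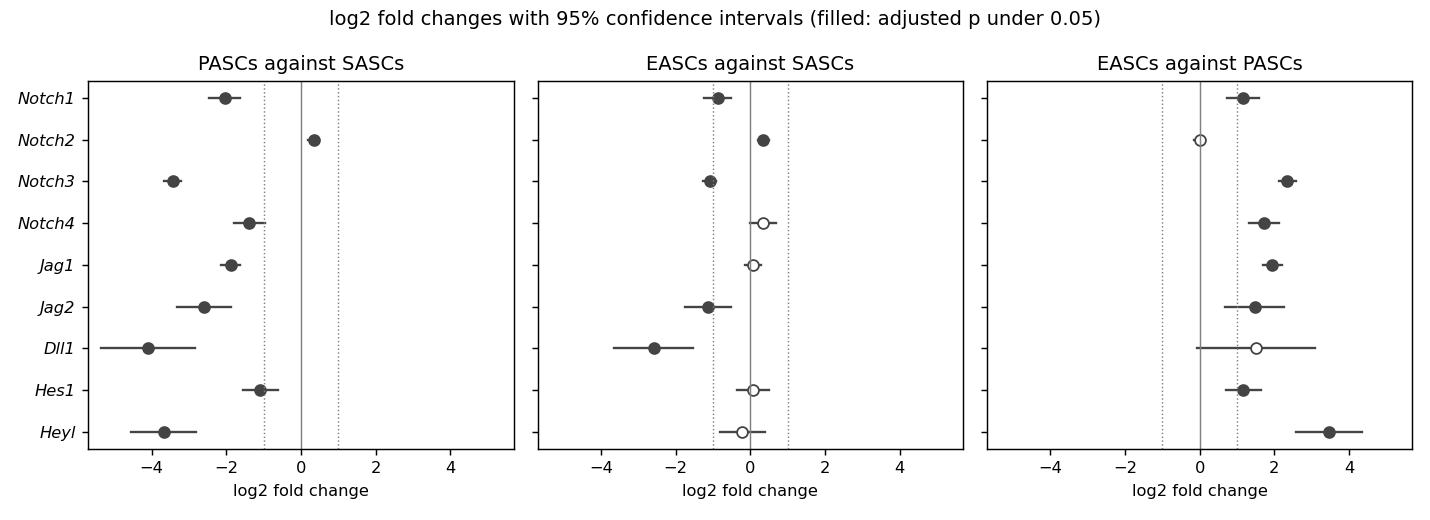
Log2 fold changes (horizontal axes) of the 9 tested genes with 95% confidence intervals (lines) in the 3 comparisons. Filled points have an adjusted p-value under 0.05, and dotted lines mark a fold change of 2. In PASCs against SASCs each gene but Notch2 lies left of 0, and in EASCs against SASCs the intervals of Notch4, Jag1, Hes1, and Heyl include 0.

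Among the receptors, Notch3, which is best known from vascular mural cells, differed the most. Its samples numbered 1 to 3 were at 46.1, 48.5, and 49.6 CPM in SASCs, at 3.83, 4.97, and 4.50 CPM in PASCs, and at 20.1, 21.8, and 25.7 CPM in EASCs. No sample of any group overlapped another group, with EASCs between PASCs and SASCs. Against SASCs, its log2 fold change was -3.44 in PASCs (standard error, SE, 0.108, adjusted p = 1.37e-20, edgeR quasi-likelihood), a 10.8-fold lower level, and -1.09 in EASCs (SE 0.0888, adjusted p = 1.73e-11), and EASCs were above PASCs by 2.34 (SE 0.113, adjusted p = 1.84e-15). Notch3 spans 14138495 to 14189688 of chromosome 7 (minus strand). Positions are those of the deposited table, in rn6 per the methods, although the labels name rn5. Leaving out any 1 sample kept the value in PASCs between -3.54 and -3.33.

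Notch2 is a widely expressed receptor and moved the other way. It was at 140, 136, and 158 CPM in SASCs, at 181, 172, and 198 CPM in PASCs, and at 168, 177, and 206 CPM in EASCs. Each sample of PASCs and EASCs was above each sample of SASCs, but the log2 fold changes were small, at 0.34 in PASCs (SE 0.0701, adjusted p = 9.69e-05, edgeR) and 0.35 in EASCs (SE 0.0700, adjusted p = 9.04e-05). They depended on the scaling: by total counts without TMM they were 0.03 (adjusted p = 0.898) and -0.06 (adjusted p = 0.768), where the median of all genes was -0.33 and -0.39. PASCs and EASCs overlapped, with a difference of 0.00204 and a 95% confidence interval of -0.14 to 0.15. Notch2 spans 200187184 to 200317621 of chromosome 2 (plus strand).

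Notch1, the receptor first known from T cell leukemia, was at 5.63, 9.59, and 7.81 CPM in SASCs, at 1.72, 2.02, and 1.80 CPM in PASCs, and at 3.98, 4.50, and 3.98 CPM in EASCs. The 3 groups did not overlap, and SASCs had the widest spread. Against SASCs, Notch1 differed by -2.04 on the log2 scale in PASCs (SE 0.200, adjusted p = 7.52e-10, edgeR) and -0.88 in EASCs (SE 0.180, adjusted p = 1.09e-04), which is less than a fold change of 2. EASCs were higher than PASCs by 1.16 (SE 0.211, adjusted p = 8.28e-05). The gene spans 3905562 to 3951015 of chromosome 3 (minus strand). Without SASCs replicate 1, Notch1 also passed the fold change of 2 in EASCs, at -1.07.

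Notch4, a receptor known mainly from endothelium, was at 4.21, 4.67, and 4.15 CPM in SASCs, at 1.80, 1.83, and 1.27 CPM in PASCs, and at 5.23, 5.15, and 6.13 CPM in EASCs. PASCs were the low group, and the samples of EASCs lay just above those of SASCs. PASCs differed from SASCs by -1.39 on the log2 scale (SE 0.200, adjusted p = 8.01e-07, edgeR), and EASCs were higher than PASCs by 1.73 (SE 0.197, adjusted p = 6.60e-08). In EASCs against SASCs it was 0.34, with a 95% confidence interval of -0.02 to 0.70 (adjusted p = 0.0846). Notch4 spans 4329794 to 4353868 of chromosome 20 (plus strand), inside the span given for Stk19 on the other strand, and with 825 counts over all samples against 816 of Stk19 its reads may include those of Stk19.

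The makeup of the receptors therefore differed more than their sum. The summed FPKM of the 4 receptors was 26.2 ± 1.59 in SASCs, 24.2 ± 1.62 in PASCs, and 27.5 ± 2.99 in EASCs (SD, n = 3 each), and the groups overlapped. This overlap was seen with TMM scaling, on which the differences of Notch2, the main part of the sum, depended. Sums by total counts were not compared. Notch2 made up 69.4% ± 1.86 of the summed FPKM in SASCs, 84.3% ± 0.132 in EASCs, and 95.7% ± 0.671 in PASCs (SD, n = 3 each). The share of Notch3 was 25.1% ± 0.945 in SASCs, 11.2% ± 0.237 in EASCs, and 2.52% ± 0.409 in PASCs (SD, n = 3 each). The samples of the 3 groups did not overlap in either share (two-sided exact permutation tests of 3 samples against 3 cannot give a p below 0.1).

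**Figure D3:**
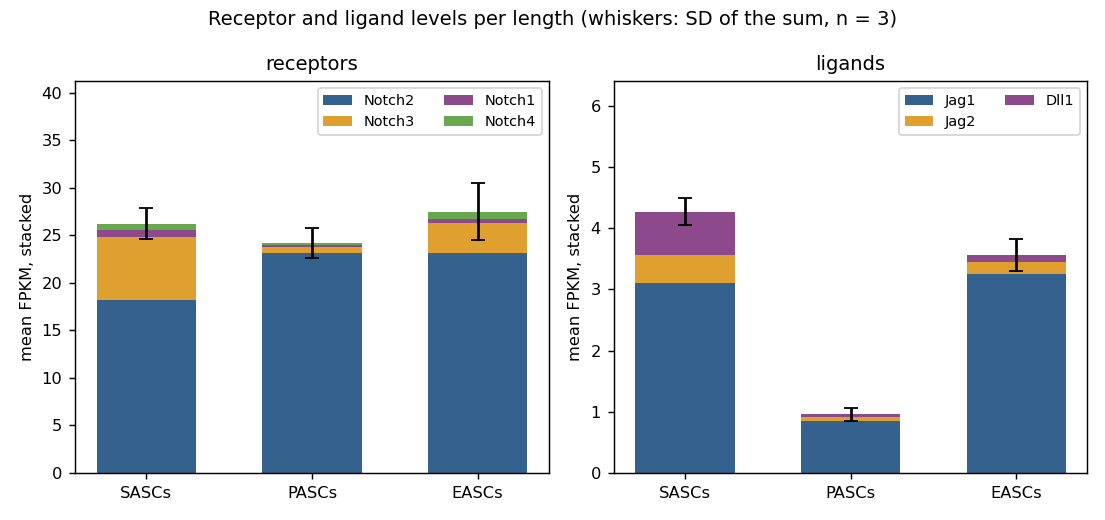
Mean FPKM of the 4 receptors (left) and the 3 ligands (right), stacked by gene, in SASCs, PASCs, and EASCs (whiskers: SD of the summed FPKM, n = 3). The receptor sums lie between 24.2 and 27.5 FPKM with Notch2 as the main part, while the ligand sum is 0.960 FPKM in PASCs against 4.27 in SASCs and 3.57 in EASCs.

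Jag1, the most abundant of the 3 ligands by FPKM in each group, was low in PASCs alone. It was at 16.7, 18.4, and 17.0 CPM in SASCs, at 3.86, 5.20, and 5.14 CPM in PASCs, and at 19.0, 16.4, and 19.0 CPM in EASCs. SASCs and EASCs overlapped, and each sample of PASCs was below each other sample. Against SASCs, Jag1 differed by -1.88 on the log2 scale in PASCs (SE 0.122, adjusted p = 1.38e-13, edgeR), and EASCs were above PASCs by 1.94 (SE 0.121, adjusted p = 4.64e-13). Between EASCs and SASCs it was 0.07, with a 95% confidence interval of -0.15 to 0.28. Jag1 spans 130079361 to 130114781 of chromosome 3 (minus strand).

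Jag2 and Dll1, the other ligands, were low in both PASCs and EASCs. Jag2 was at 2.36, 2.21, and 2.10 CPM in SASCs, at 0.344, 0.336, and 0.424 CPM in PASCs, from 8 to 9 counts a sample, and at 1.05, 0.973, and 1.03 CPM in EASCs. The 3 groups did not overlap, and the log2 fold change of Jag2 was -2.60 in PASCs (SE 0.353, adjusted p = 2.89e-07, edgeR) and -1.13 in EASCs (SE 0.304, adjusted p = 0.00184). EASCs were higher than PASCs by 1.47 (SE 0.382, adjusted p = 0.00385). Jag2 spans 137711144 to 137733414 of chromosome 6 (minus strand).

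Dll1, a Delta ligand, had 50, 49, and 59 counts in SASCs, 6, 2, and 1 counts in PASCs, and 14, 12, and 0 counts in EASCs. These counts correspond to 1.74, 2.08, and 2.88 CPM in SASCs, 0.230, 0.0748, and 0.0530 CPM in PASCs, and 0.586, 0.486, and 0 CPM in EASCs. Each sample of SASCs was above each other sample, and PASCs and EASCs overlapped near the limit of 3 counts. The log2 fold change against SASCs was -4.10 in PASCs (SE 0.612, adjusted p = 1.34e-06, edgeR) and -2.59 in EASCs (SE 0.513, adjusted p = 7.18e-05). EASCs and PASCs differed by 1.51, with a 95% confidence interval of -0.06 to 3.08 (adjusted p = 0.146). Leaving out any 1 sample gave 0.99 to 2.38, and the difference passed only without EASCs replicate 3, the sample at 0 counts, at 2.06 (adjusted p = 0.0163). It was lowest without EASCs replicate 1 and highest without PASCs replicate 1. Genes at 0 in a sample with at least 7 counts in the other samples of its group numbered 5 to 29 for the 9 samples, and 18 for EASCs replicate 3. Dll1 spans 57318621 to 57326732 of chromosome 1 (minus strand), inside the span given for Vom2r6, a gene with 0 counts. The summed FPKM of the 3 ligands was 4.27 ± 0.219 in SASCs, 0.960 ± 0.108 in PASCs, and 3.57 ± 0.261 in EASCs (SD, n = 3 each), of which Jag1 made up 72.7% ± 3.001, 87.9% ± 4.44, and 91.0% ± 2.79.

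The targets Hes1 and Heyl, which encode basic helix-loop-helix repressors, were low in PASCs and overlapped between EASCs and SASCs. Hes1 was at 3.37, 3.18, and 4.39 CPM in SASCs, at 1.42, 1.68, and 2.07 CPM in PASCs, and at 3.18, 3.89, and 4.43 CPM in EASCs. In PASCs, Hes1 had a log2 fold change of -1.09 (SE 0.228, adjusted p = 1.31e-04, edgeR), near the fold change of 2, and without SASCs replicate 3 or PASCs replicate 1 it was -0.95 and -0.96 and Hes1 was no longer a DEG. EASCs were higher than PASCs by 1.17 (SE 0.227, adjusted p = 1.90e-04), and between EASCs and SASCs the value was 0.08, with a 95% confidence interval of -0.35 to 0.50. Hes1 spans 74312837 to 74315249 of chromosome 11 (minus strand).

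Heyl, a target known from vascular smooth muscle, had 88, 46, and 63 counts in SASCs, 8, 7, and 0 counts in PASCs, and 46, 61, and 57 counts in EASCs. In CPM it was at 3.06, 1.95, and 3.08 in SASCs, at 0.306, 0.262, and 0 in PASCs, and at 1.93, 2.47, and 2.55 in EASCs. PASCs were far below the other groups, which overlapped. In PASCs, Heyl had a log2 fold change of -3.67 (SE 0.422, adjusted p = 1.56e-08, edgeR), and leaving out any 1 sample kept it between -4.11 and -3.23. EASCs were higher than PASCs by 3.45 (SE 0.430, adjusted p = 3.03e-07), and against SASCs they differed by -0.22, with a 95% confidence interval of -0.83 to 0.38. Heyl spans 140923914 to 140940905 of chromosome 5 (plus strand). Hey1, a target of the same family from 95320283 to 95322701 of chromosome 2 (plus strand), had 3, 10, and 2 counts in SASCs, 1, 0, and 0 counts in PASCs, and 0, 1, and 2 counts in EASCs, too few to be tested, and no fold change is given.

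Other genes of the pathway were described with a list of 68 genes by role, of which 67 were in the table and 60 were tested. In PASCs against SASCs, 15 were higher and 30 lower at an adjusted p-value under 0.05, with 4 upregulated and 10 downregulated DEGs, beside 34.6% and 34.6% of all genes passing as higher and lower and 12.0% and 14.9% as DEGs. In EASCs, 13 were higher and 31 lower, with 5 upregulated and 8 downregulated DEGs, beside 35.5%, 34.3%, 13.6%, and 14.2% of all genes. Among the DEGs, Cntn1 and Mfap2 passed the filter on low counts through SASCs alone, while Mfng reached its cutoff in no sample of PASCs and Neurl1 in no sample of SASCs, so the directions of their calls follow from the filter and the counts that include them are a description. The median log2 fold change of the list was -0.17 in both comparisons, beside -0.01 and 0.01 for all genes tested. Between EASCs and PASCs, 11 genes were higher and 7 lower, and 42 did not pass, near the 16.1% and 14.5% of all genes that were higher and lower.

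**Figure D4:**
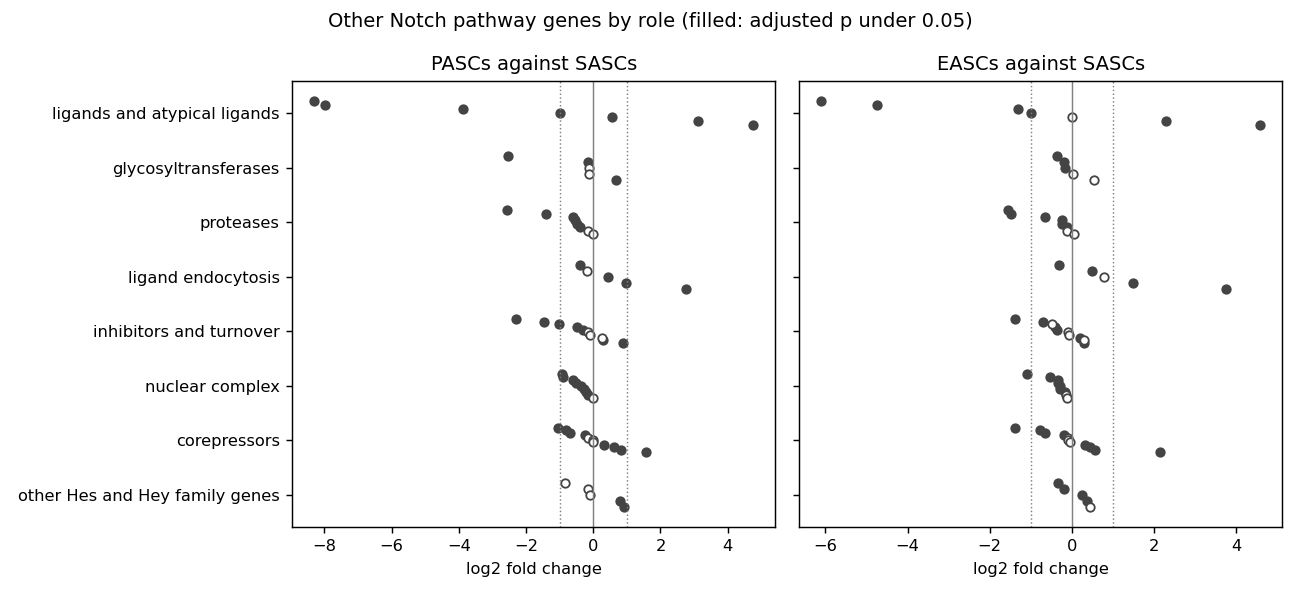
Log2 fold changes (horizontal axes) of the 60 tested genes of the list, by role, in PASCs and EASCs against SASCs. Each point is a gene, filled at an adjusted p-value under 0.05, and dotted lines mark a fold change of 2. The ligands and atypical ligands spread the widest, while the genes of the nuclear complex lie at or left of 0.

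Among further ligands, Dll4, the Delta ligand of arterial endothelium, was at 6.61, 8.96, and 6.69 CPM in SASCs, 0.574, 0.299, and 0.688 CPM in PASCs, and 3.52, 2.47, and 2.91 CPM in EASCs. It was a downregulated DEG in PASCs at -3.86 (SE 0.263, adjusted p = 4.18e-13, edgeR) and in EASCs at -1.32 (SE 0.201, adjusted p = 1.75e-06), the order of groups seen for Notch3 and Jag2. Dner, an atypical ligand best known from neurons, rose instead, with mean CPM of 0.590 ± 0.125 for SASCs, 16.6 ± 0.702 for PASCs, and 14.6 ± 1.21 for EASCs (SD, n = 3 each) and log2 fold changes of 4.77 and 4.59 (adjusted p = 1.63e-19 and 4.84e-19, edgeR). Dlk2, an atypical member of the Delta family, also rose, by 3.10 and 2.30, but overlaps Abcc10 on the other strand, a gene with more counts. Cntn1 and Mfap2, which have been described as Notch ligands besides their roles in neural adhesion and microfibrils, were counted mainly in SASCs, where samples held 21 to 51 counts of Cntn1 and 29 to 61 of Mfap2, while each sample of PASCs held 0 and those of EASCs at most 1 and 4.

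Of 8 tested protease genes, 6 were lower in PASCs and 6 in EASCs, where 34.6% and 34.3% of all genes were, and none was higher. Psen2, a catalytic subunit of gamma-secretase, had mean CPM of 48.5 for SASCs, 8.09 for PASCs, and 17.5 for EASCs, with log2 fold changes of -2.58 (adjusted p = 1.38e-19, edgeR) and -1.48 (adjusted p = 5.28e-15). Adam17, which can cut the receptors at the surface, fell in both PASCs (-1.41) and EASCs (-1.56). Of the 5 glycosyltransferases, which modify the receptors, 1 was higher and 2 lower in PASCs and 3 were lower in EASCs, and only Mfng was a DEG against SASCs, in PASCs (14.9% of all genes were downregulated DEGs there), at -2.54 from 37 counts in all SASCs and 6 in all PASCs.

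In the nuclear complex, 8 of 9 tested genes were lower in PASCs and 7 in EASCs, where 34.6% and 34.3% of all genes were, but none was a DEG in PASCs and 1, Rbpj, in EASCs (14.9% and 14.2% of all genes were downregulated DEGs). Among the genes lower in both groups, 1 overlaps a gene on the same strand with 141352 counts over all samples against its 11391. Rbpj, the DNA-binding partner of the receptors, was at 429, 419, and 446 CPM in SASCs, 214, 233, and 249 CPM in PASCs, and 203, 205, and 198 CPM in EASCs. Each sample of PASCs and EASCs was below each sample of SASCs. Its log2 fold change was -0.89 in PASCs (SE 0.0572, adjusted p = 1.04e-13, edgeR) and -1.09 in EASCs (SE 0.0575, adjusted p = 1.28e-15). Rbpj was lower in EASCs than in PASCs by a log2 fold change of -0.20 (adjusted p = 0.00845), whereas Hes1 and Heyl were higher in EASCs.

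Of 10 tested inhibitors and turnover genes, 5 were lower and 2 higher in PASCs, and 4 were lower and 2 higher in EASCs. Over all genes, 34.6% were lower and 34.6% higher in PASCs and 34.3% and 35.5% in EASCs. Nrarp, a feedback inhibitor that is itself a Notch target, was at 2.64, 2.33, and 2.73 CPM in SASCs, 0.421, 0.449, and 0.741 CPM in PASCs, and 1.55, 2.72, and 1.21 CPM in EASCs. It fell in PASCs, at a log2 fold change of -2.29 (SE 0.347, adjusted p = 1.68e-06, edgeR) and overlapped between EASCs and SASCs (-0.49, adjusted p = 0.140), as Hes1 and Heyl did. The ubiquitin ligase genes Dtx4 (-1.46 and -1.39 in PASCs and EASCs) and Dtx3l (-1.01 and -0.71) were the other DEGs of this role. Of 5 genes of ligand endocytosis, 3 were higher and 1 lower in each comparison, with DEGs Neurl1 (2.76 in PASCs and 3.75 in EASCs) and, in EASCs, Neurl3 (1.48). Of 11 tested corepressors, 4 were higher and 4 lower in each comparison, near the shares over all genes, with DEGs Tle1 (1.57 and 2.14) and Tle2 (-1.04 and -1.37). Of the 5 tested other genes of the Hes and Hey family, 2 were higher and none lower in PASCs, 2 were higher and 2 lower in EASCs, and none was a DEG in either. Among the genes higher in both comparisons, 1 overlaps a gene on the other strand with 28054 counts over all samples against its 3549.

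Because several of these genes are known from blood vessels, markers of vessel cells were examined in the same samples, and their part in the results was not tested. Of 10 endothelial markers, 7 were downregulated DEGs in PASCs against SASCs and 1 was an upregulated DEG, and 8 were DEGs higher in EASCs than in PASCs, beside 14.9%, 12.0%, and 5.19% of all genes. Emcn, among both the 7 and the 8, reached the cutoff of the filter on low counts in no sample of PASCs. The directions of its calls in these comparisons therefore follow from the filter. In EASCs against SASCs, 5 of the 10 passed as lower and 2 as higher (34.3% and 35.5% of all genes). Summed over the markers, SASCs were at 101 to 106 CPM, PASCs at 60.9 to 67.0 CPM, and EASCs at 115 to 125 CPM, of which Flt1 had a mean of 13.6 CPM in SASCs and 55.7 CPM in EASCs, and no marker was under 1 CPM in each of the 9 samples. Pecam1 had log2 fold changes of -3.20 in PASCs and -0.71 in EASCs, Cdh5 of -2.99 and 0.09, and Kdr of -3.45 and -2.26. Tek and Flt1 were higher in PASCs, at 1.71 and 0.51, and in EASCs, at 1.66 and 2.04, and Tek overlaps Eqtn on the other strand.

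Of 11 mural and smooth muscle markers, 6 were upregulated and 3 downregulated DEGs in PASCs (12.0% and 14.9% of all genes), and 8 and 3 in EASCs (13.6% and 14.2%). Rgs5, Abcc9, and Kcnj8, markers of pericytes, were the 3 downregulated DEGs in both, of which Rgs5 passed the filter on low counts through SASCs alone and so had to be lower, with log2 fold changes of -3.83, -3.64, and -3.10 in PASCs and -2.85, -2.05, and -1.70 in EASCs, while Cspg4, another pericyte marker, and the contractile genes Acta2, Tagln, and Cnn1 rose in both. The summed level, mostly of the contractile genes, was 224 to 233 CPM for SASCs, 2923 to 3216 CPM for PASCs, and 6454 to 6813 CPM for EASCs. Summed over 9 mesothelial markers, SASCs were at 20.01 to 21.6 CPM, PASCs at 98.9 to 106 CPM, and EASCs at 132 to 143 CPM, with 2 markers under 1 CPM in each sample. For the 6 leukocyte markers in the table it was 48.6 to 53.1, 118 to 123, and 171 to 182 CPM.

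**Figure D5:**
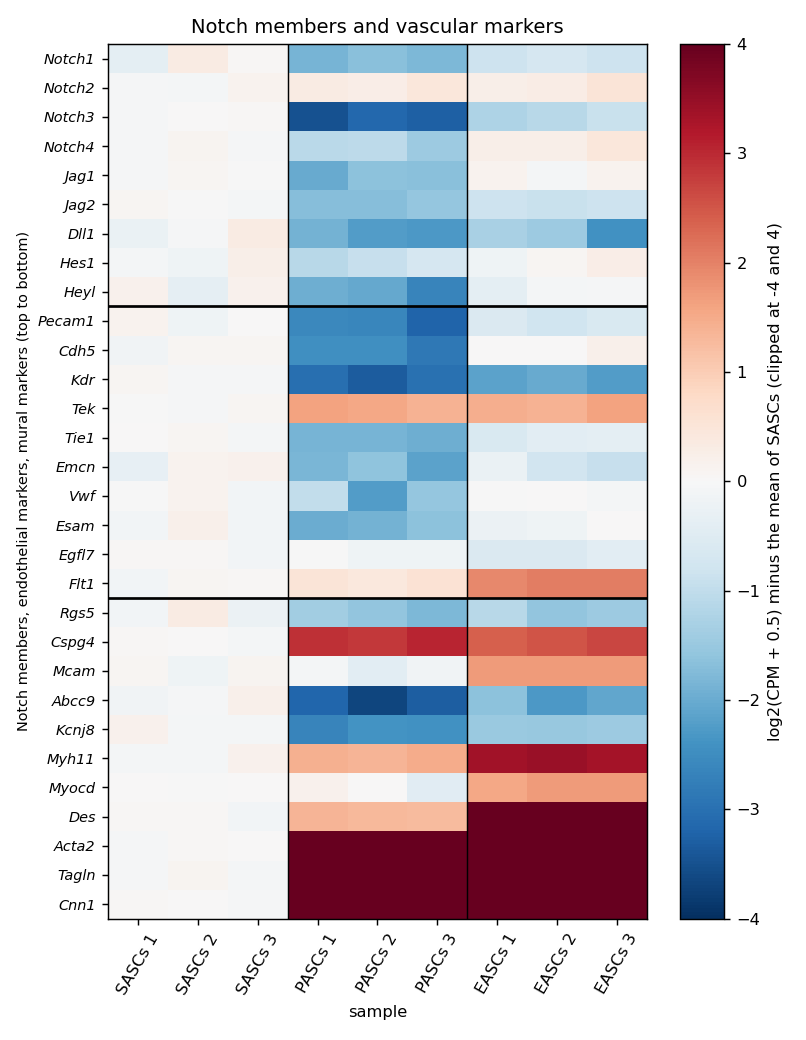
Level in each of the 9 samples (columns) of the 9 tested Notch genes, 10 endothelial markers, and 11 mural markers (rows), as log2(CPM + 0.5) minus the mean of SASCs, with colors clipped at -4 and 4. In PASCs, Notch genes other than Notch2, most endothelial markers, and the pericyte markers Rgs5, Abcc9, and Kcnj8 are blue, and Cspg4, Acta2, Tagln, and Cnn1 are red.

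The gene with the largest log2 fold change among the 9 was Dll1, and the tested genes whose log2 CPM followed it most closely over the 9 samples were LOC103694081 (Pearson's r = 0.986), Zfp263 (0.972), and Caprin2 (0.970). Of 14769 other genes, 217 had an r above 0.9. Dll1 held 1 to 6 counts a sample in PASCs and reached the cutoff of the filter on low counts in none of them. The direction of its call in PASCs against SASCs therefore follows from the filter. The points fall into the 3 groups and share their libraries, and LOC103694081 had a mean of only 0.469 CPM in SASCs and 0.0959 CPM or less in the other groups, so these values only describe which genes were high in SASCs.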

How the data were processed

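The table deposited by the authors holds counts, whole numbers of reads for 35362 genes in 9 samples, without normalization. Per the methods, the authors trimmed adaptors (cutadapt) and poor-quality bases (FastX-Toolkit), then aligned paired-end reads to rn6 with TopHat (the labels name rn5 as the build). The counting tool, its use of strand, and the treatment of reads matching several genes are not given in the sources used here. Positions and gene lengths are those of the table. Samples were grouped by their titles.

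The counts were scaled by TMM (factors 0.740 to 1.23), filtered with filterByExpr (minimum count 10), and tested in 1 model of the 3 groups with the quasi-likelihood test of edgeR 4.0.16 in R 4.3.3, with Benjamini-Hochberg adjustment over 14770 genes in each comparison. The DEGseq test of the study was not used. Standard errors were derived from the F statistic. CPM were divided by gene length for FPKM. The 10 genes and all lists were chosen with earlier results of these data known. Other pathway genes were named if DEGs in any comparison, at most 6 for each role. Named markers were chosen after their values were seen. The result of 1 marker list is not reported here. The test was also run on simulated counts, with means and spreads taken from the fit to these data. The alternatives were DESeq2 1.42.0, other scalings and filters, removal of rRNA genes, fits of only 2 groups, a replicate block, and leaving out each sample.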

Additional observations from a re-analysis of the deposited data

How the results depend on the processing

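Under 7 other settings and with each sample left out, no total count of the 9 genes passing a threshold moved by more than 1.5 times, but without TMM the count of higher genes fell from 1 to 0 in both PASCs and EASCs against SASCs, since Notch2 did not pass (adjusted p = 0.898 and 0.768). Each of the 8 genes lower in PASCs than in SASCs kept its direction and an adjusted p-value under 0.05. Scaling by total counts without TMM, which moved the median of all genes to -0.39 in EASCs and -0.33 in PASCs against SASCs and the share of higher genes among those passing from 50.9% to 24.7% and from 50.02% to 27.2%, turned small differences in EASCs against SASCs negative: Notch2 (-0.059), Notch4 (-0.071), Jag1 (-0.34), and Hes1 (-0.33), none of which passed. All 4 were above that median. Hes1 in EASCs against SASCs ranged from -0.032 to 0.22 with samples left out. The difference of Notch2 between EASCs and PASCs was -0.0032 with DESeq2, -0.0014 with the replicate block, -0.087 without TMM, and -0.084 to 0.062 with samples left out. Deviations of samples with the same number correlated by -0.0348 to 0.0380, and 4 of 9 samples correlated best with their own number. These values show no pairing by number, but with 3 samples in each group they cannot exclude a shared rat or plate. The replicate block changed no call. Genes under about 10 counts a sample, such as Dll1 and Heyl in PASCs and Hey1, are limited by depth.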
